A study of Mus musculus with 4 samples.

Results

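The proteasome and the enzymes that attach and remove ubiquitin were examined in area CA1 of the hippocampus of control mice. The members were all probe sets, other than the array's controls, that are annotated with exactly 1 gene symbol beginning with Psma, Psmb, Psmc, Psmd, Psme, Ube, Uchl, Fbxo, Fbxw, Fbxl or Usp followed by a digit. The rule uses names and no measured value, but it was set with earlier results of these data known. The rule found 149 probe sets of 110 genes, among 12422 probe sets of which those with 1 symbol covered 8251 genes, and 5 further probe sets with such a symbol among several, Psme2 included, were left out. A total of 121 of the 149, from 96 genes, were bright enough to be tested. The other 28 were too dim, and 7 of these lay below the floor for low signals, a signal of 35.1, in all 4 samples. The 14 genes with no tested probe set were Psmb9, Psmc3ip, Psmc4, Psmd2, Ube2l6, Ube2t, Fbxl12, Fbxo15, Usp12, Usp17la, Usp17lc, Usp18, Usp29 and Usp42. No member was an E1 enzyme.

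RNA came from young male C57BL/6J mice that an experimenter had handled and that had no other treatment. There were 4 samples, 1 at each of 1, 2, 4 and 6 hours, and the hours count from the last shock that the experimental mice, which are not analysed here, had received. Whether RNA of 1 mouse or of several pooled mice went onto an array is not given in the labels. Since each hour had 1 sample, a difference between hours and a difference between samples cannot be told apart, and every p-value measures only the spread between these samples, which may be technical.

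Ubiquitin is a small protein that is activated by an E1 enzyme, passed to an E2 conjugating enzyme and joined to a target protein with the help of an E3 ligase. F-box proteins are the interchangeable parts of 1 class of E3 ligases that recognise the target. Chains of ubiquitin send many targets to the 26S proteasome, whose 19S cap binds, unfolds and strips the target of ubiquitin and whose 20S core, a barrel of alpha and beta rings, cuts it, while deubiquitinases remove ubiquitin again. In neurons this system turns over synaptic proteins, and protein degradation has been studied as a part of synaptic plasticity and memory.

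Levels are given as the deposited signals, in arbitrary units on a linear scale, always in the order 1, 2, 4 and 6 hours. Differences are on the log2 scale after quantile normalization, and each is 1 sample minus the average of the remaining samples. The SD of those remaining samples stands beside some of the differences. Signals of different probe sets depend on their probes and were not set against each other, so "brighter" and "dimmer" serve only to tell apart the probe sets of a gene. With 4 arrays, the precision of every value is low.

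The 1-hour sample stood apart from the others. Its ratio of the 3' to the 5' Gapdh control probe set was 4.52, against 1.18, 1.37 and 1.20 in the samples of 2, 4 and 6 hours, and the same ratio for Actb was 2.34 against 2.00, 1.80 and 1.76. Markers of choroid plexus, 5 of 6 listed genes with a probe set and none below the floor in all samples, had a summed signal of 4748 at 1 hour and of 1781 to 2418 in the other samples. All 8 neuron markers were tested, and 6 of them lay below the mean of the other samples at 1 hour, with a median difference of -0.61. Their summed signal was 30011, 34166, 30669 and 35195, most of it from Snap25, which was highest at 1 hour (19258, 18318, 17210.0 and 17847), while Syt1 (1092, 2216, 1592 and 2452) and Map2 (25.4, 338.1, 103.3 and 267.6) were lowest there. Of 6 CA1 pyramidal markers 3 had a probe set, and at 1 hour Man1a was highest (1389.7, 790.2, 1071 and 912.5), Pou3f1 lowest (489.3, 587.7, 726.1 and 654.1) and Wfs1 in between (2292, 2274, 2797 and 1964). The part of these differences in the results on the 1-hour sample was not tested. In bulk tissue, fewer cells of a type and less RNA per cell cannot be told apart.

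Transcripts of the 20S core were slightly higher in the 1-hour sample. The core probe sets tested, alpha, beta and immunoproteasome subunits together, numbered 18, and 17 of them lay above the mean of the other 3 samples, against 54.7% of all 7453 probe sets tested. The 1-hour sample was the highest of the 4 for 13 of the 18 after normalization, against 34.9% of all tested, and for 11 of the 18 in the deposited signals. The median difference of the 18 was 0.17 at 1 hour, against 0.05 over all tested probe sets, and -0.06, -0.08 and 0.02 at 2, 4 and 6 hours. None of the 18 passed the test at 1 hour. These counts were made after the values had been seen, and among the 1087 tested probe sets at least as bright as the median of the core, 55.3% lay above the mean of the other samples and 40.2% were highest at 1 hour.

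The alpha subunits, coded by Psma genes, form the outer rings that gate entry into the barrel. All 7 alpha probe sets lay above the mean of the others at 1 hour, with a median difference of 0.29. Psma7 had signals of 4083, 2509, 2905 and 2165, so that the 1-hour sample was the highest and the 6-hour sample the lowest, and it lay 0.68 above the mean of the others (SD 0.20; limma, adjusted p = 0.108). Psma3 had 6278, 4540, 4531 and 4061, a difference of 0.44 at 1 hour. Psma5 lay at 2259, 1822, 1459 and 1818, with the lowest value at 4 hours, and Psma2 at 3588, 2722, 2876 and 3058, with the lowest at 2 hours. The 1-hour signal was the highest in these 4 subunits. It was also the highest in Psma4 (2583, 2459, 2399 and 2366) and Psma6 (3549, 2974, 2805 and 3186.5). Psma1, by contrast, had 431.0, 398.8, 393.2 and 431.4, and its 1-hour and 6-hour signals were nearly equal.

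The beta subunits carry the cutting sites, and their spread was small. All 9 tested probe sets of the constitutive beta genes lay above the mean of the others at 1 hour, by a median of 0.15, and in 5 of the 9 the 1-hour sample was the highest. Psmb7, which carries the trypsin-like site, had 1767, 1183, 1239 and 1388, a difference of 0.48 at 1 hour, and its 1-hour signal was above the range of the others. Psmb2, a partner of the cutting subunits in the ring, had 1746, 1476, 1273 and 1441, and Psmb3, a structural subunit, had 2856, 2568, 2199.8 and 3003. Both were lowest at 4 hours, and the highest sample differed between them. Psmb6, which carries the caspase-like site, had 1599, 1457, 1451 and 1631, with the samples of 1 and 6 hours close together. Psmb5, which carries the chymotrypsin-like site, had 1599, 1546, 1658 and 1420 on its brighter probe set and 394.1, 324.2, 369.0 and 401.0 on the other. The sample order differed between these 2 probe sets, and the 1-hour signal was the highest in neither as deposited, though marginally so for the dimmer after normalization. The brighter tested probe set of Psmb1, a structural beta subunit, had 5130, 4476, 4616 and 4564, and its SD over the 4 samples after normalization was 0.04.

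**Figure D1:**
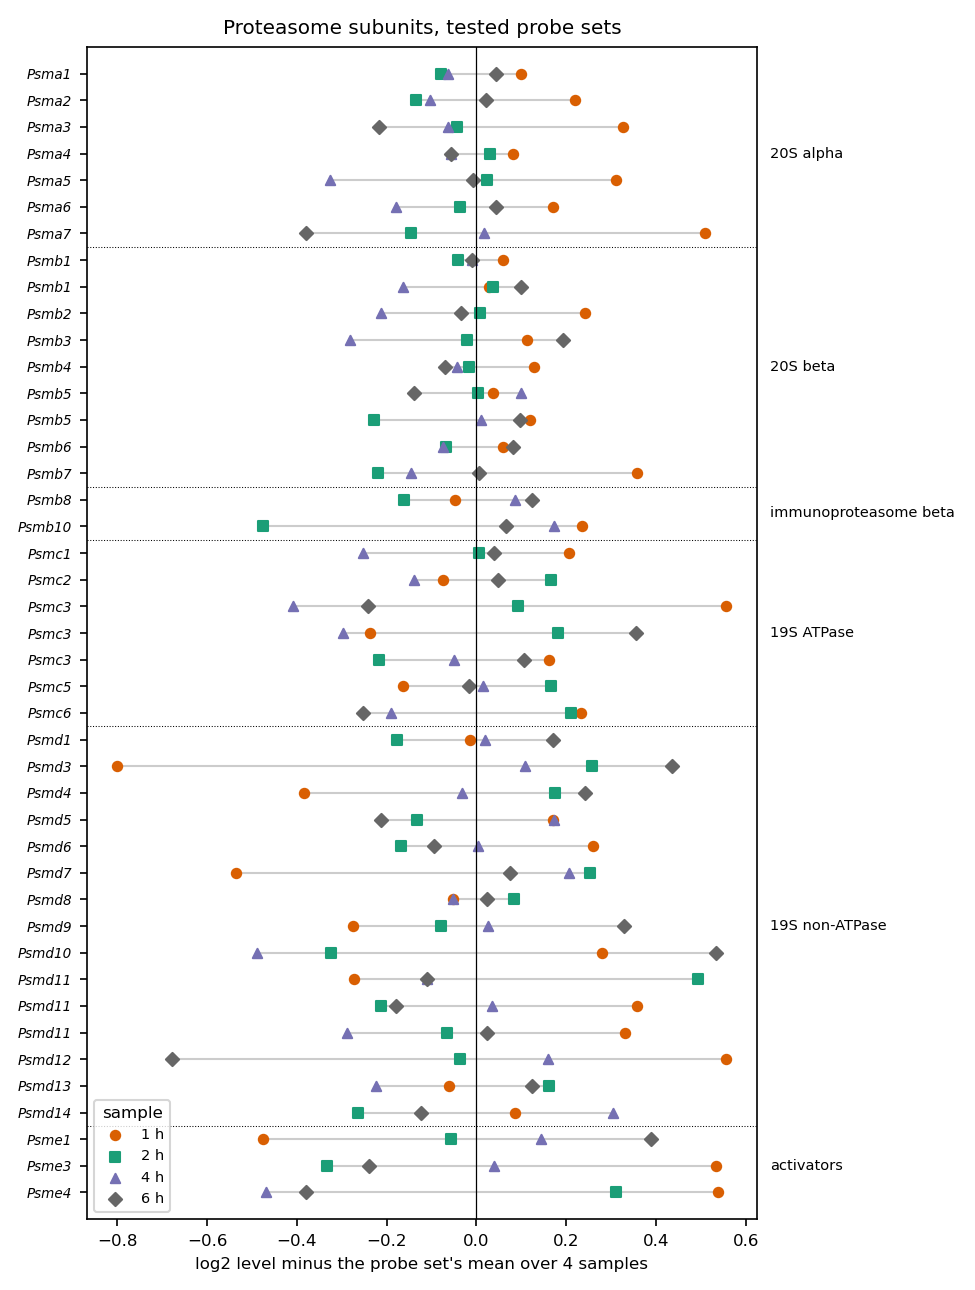
The plot of proteasome subunits gives, for each tested probe set (rows, by gene and role), the log2 level in each of the 4 samples minus the mean of that probe set over the samples (x axis, log2), with 1 colour and marker per sample. The 1-hour points of the alpha and beta subunits lie to the right of 0, while Psmd3, Psmd4 and Psmd7 of the 19S cap have theirs to the left.

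The immunoproteasome subunits Psmb8, Psmb9 and Psmb10 replace constitutive beta subunits in immune cells and under interferon. Psmb10 had 1490, 924.1, 1432 and 1333, with the 2-hour sample below the other 3, a difference of -0.63 (SD 0.09). Psmb8 was narrow, at 138.9, 132.0, 147.2 and 154.9, and Psmb9 was not tested, with signals of 30.4, 17.7, 28.7 and 40. Over the 7 interferon and antigen presentation markers with a probe set the summed signal was 3304, 2759, 2450 and 2812, and over the 8 microglia markers 9010, 8462, 9739 and 8960. The interferon sum was lowest at 4 hours and the microglia sum at 2 hours, and their part in the Psmb10 signal was not tested.

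Probe sets of the 19S cap lay on both sides of the other samples at 1 hour. Of its 22 tested probe sets 11 lay above the mean of the others at 1 hour, and their median difference was 0.05. Its members spread more than those of the core, with a median SD over the 4 samples of 0.25 against 0.15, and the same median over all probe sets tested was 0.25. For tested probe sets at least as bright as the median of the core it was 0.16, so the core was about as steady as other bright probe sets.

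Psmd3, a structural subunit of the lid of the 19S cap, was lower in the 1-hour sample. Its signals were 646.2, 1365, 1240 and 1563, and the 1-hour value lay outside the range of the other samples. The log2 difference was -1.07 (SD of the others 0.16), or 2.09-fold, with a limma adjusted p of 0.0348. The call was lost when the 2-hour or the 6-hour sample was left out (adjusted p = 0.0787 and 0.0812), and over its 10 alternatives the adjusted p ran from 0.0175 to 0.181, always with a lower level at 1 hour. It was 1 of 2 member probe sets of 121 that passed this test at 1 hour, where 2.35% of all tested probe sets passed, and no member passed it at 2, 4 or 6 hours. At an unadjusted p under 0.05 the counts were 27 of 121 at 1 hour (15.8% of all tested), 4 at 2 hours (2.64%), 1 at 4 hours (2.76%) and 4 at 6 hours (2.27%).

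Psmd4 and Psmd7 also had their lowest signal at 1 hour, without passing the test. In the lid, Psmd6, Psmd12 and the brighter probe sets of Psmd11 were highest there, while Psmd8 and Psmd13 differed little from the others (-0.07 and -0.08). Psmd7, the lid partner of the deubiquitinase Psmd14, had 858.9, 1500, 1455 and 1331, a difference of -0.72 (limma, adjusted p = 0.0875). Psmd4, a ubiquitin receptor of the cap, had 1429, 2086, 1857 and 2232, a difference of -0.51 (adjusted p = 0.20). In both, the samples of 2, 4 and 6 hours lay close together and above the 1-hour sample. Psmd14, which strips ubiquitin from the bound target, had 1285, 1026, 1500 and 1125, an order that differs from that of its partner.

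Psmd6, a lid subunit, had 2153, 1606, 1826 and 1704, with a difference of 0.35 at 1 hour and the 1-hour sample above the range of the others. Psmd11, a lid subunit on which assembly and activity of the proteasome depend, had 3 tested probe sets that disagreed. The brightest had 2648, 1976, 1725 and 2153 (1-hour difference 0.44), and the next 537.9, 381.5, 442.1 and 385.5 (0.48), both highest at 1 hour. The dimmest had 282.6, 503.0, 320.2 and 326.0, lowest at 1 hour (-0.36, or -0.16 without the 2-hour sample) and with the 2-hour sample 0.66 above the mean of the others. Psmd1, the other large scaffold of the base, had 3852, 3337, 3876 and 4223, with the 1-hour sample inside the range of the others.

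Psmd12, a scaffold subunit of the lid, went the other way. Its signals were 821.4, 559.8, 629.8 and 357.6, and the fitted change from 1 to 6 hours was -1.0 on the log2 scale. A fitted change is a slope scaled to the time from 1 to 6 hours, also where a sample is left out. Without the first or the last sample it is therefore extrapolated beyond the samples kept. Extrapolated in this way without the 6-hour sample, it was -0.50 for Psmd12. Psmd10, also known as gankyrin, is a chaperone that helps to assemble the base of the cap, and it had 161.6, 112.4, 93.0 and 196.8, with the middle samples low. Psmd9, another assembly chaperone, had 466.3, 562.4, 591.4 and 747.8, in the order of the hours. Psmd8, a lid subunit, hardly moved, at 787.5, 885.1, 794.7 and 845.1.

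The ATPase ring of the cap, coded by Psmc genes, unfolds the target. Its 7 tested probe sets had median differences of 0.22, 0.22, -0.25 and 0.05 at 1, 2, 4 and 6 hours. Psmc6 had 4075, 3846, 3005 and 2813, and Psmc1 had 1277, 1134, 930.6 and 1155, so that the 4-hour sample was near or at the bottom in both. Psmc2 had 1511, 1764, 1453 and 1665, and the tested probe set of Psmc5 had 749.8, 967.5, 856.6 and 843.6. The 3 probe sets of Psmc3 gave different orders. The first had 472.7, 362.5, 248.8 and 282.3, the second 412.3, 573.2, 401.7 and 644.7, and the third 1475, 1155, 1285 and 1432, so no single order of samples holds for that gene. Psmc4 was not tested, at 53.6, 153.3, 61.8 and 108.2, and neither was Psmd2, a large scaffold subunit of the base, at 19.7, 108.2, 38.8 and 35.3.

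The activators bind the ends of the core in place of the cap, and the 3 tested genes each had a different pattern. Psme1, a part of the interferon-inducible activator PA28, had 372.4, 518.5, 580.6 and 703.3, in the order of the hours, with a fitted change of 0.79. Psme3, which forms the nuclear form of this activator, had 1792, 989.9, 1273 and 1051, and the 1-hour sample lay 0.71 above the mean of the others. Psme4, the activator PA200, had 301.3, 270.4, 150.6 and 163.6, with the samples of 1 and 2 hours above those of 4 and 6 hours. Its fitted change was -1.02. Without the 6-hour sample the change extrapolated to 6 hours was -1.71, which exceeds the log2 range of 1.01 over the 4 samples. None passed the limma test at an adjusted p under 0.05.

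No member changed with the hour by the limma trend test, and neither did any other probe set: 0 of 121 members and 0% of all 7453 had an adjusted p under 0.05. At an unadjusted p under 0.05 there were 15 members (12.4% of members, against 6.24% of all tested). Of these, 7 had a rising fit (5.79% of members, against 3.57% of all tested) and 8 a falling one (6.61%, against 2.67%). The values that follow are therefore a description of 4 samples in order, each without a replicate.

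Among the conjugating enzymes, of which 25 probe sets were tested, the median difference lay between -0.11 and 0.01 at the 4 hours. Ube2s, which extends ubiquitin chains for the anaphase-promoting complex, had 207.7, 263.5, 405.0 and 544.1, in the order of the hours. Its fitted change from 1 to 6 hours was 1.37 (SE 0.30; unadjusted p = 0.00266, limma adjusted p = 0.740). Ube2f, which conjugates the ubiquitin-like protein NEDD8, had 196.1, 278.5, 157.0 and 82.4, with the 2-hour sample the highest and a difference of -1.31 at 6 hours. Ube2e3 likewise had its lowest signal at 6 hours, with 213.4, 166.8, 197.0 and 96.9.

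Ube2h and Ube2z were low in the 1-hour sample on both of their probe sets. Ube2h, the partner of the CTLH ligase, had 263.9, 619.2, 455.9 and 695.2 on the dimmer probe set, a difference of -1.09 (limma, adjusted p = 0.103), and 606.8, 1183, 813.0 and 971.3 on the brighter, a difference of -0.66. Ube2z, which is charged by the second ubiquitin-activating enzyme Uba6, had 399.1, 829.8, 732.3 and 1082 on the brighter, a difference of -1.09 (adjusted p = 0.0759), and 209.5, 257.6, 331.2 and 329.5 on the dimmer. In all 4 probe sets the 1-hour signal was below the range of the others.

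Among other conjugating enzymes, Ube2a, Ube2b and Ube2n of the preset list were highest at 1 hour. Ube2b, a mammalian counterpart of yeast Rad6, had 3030, 2431, 2212 and 2139, and its close relative Ube2a had 852.2, 617.3, 774.8 and 703.4, both highest at 1 hour. Ube2n, which builds chains used in signalling, had 2291, 1786, 1537 and 1680. The brighter probe set of Ube2d2a, a broadly acting E2, had 1166, 1069, 1115 and 1171, and the dimmer had 223.1, 214.5, 321.6 and 205.2 with the 4-hour sample above the rest. Ube2l6, an interferon-inducible E2 for ISG15, was not tested, at 35.3, 37.4, 92.2 and 28.5, and Usp18, which removes ISG15, was below the floor in all 4 samples.

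Ube3a, the E3 ligase whose loss in neurons causes Angelman syndrome, had 566.5, 301.9, 308.4 and 212.1. The 1-hour sample was 1.11 above the mean of the others, or 2.16-fold (limma, adjusted p = 0.124), and Ube3a was the 1 member 2-fold or more higher at 1 hour, where 1.78% of all tested probe sets were. Its fitted change from 1 to 6 hours was -1.18 (unadjusted p = 0.0215), and -0.61 when extrapolated to the same time without the 1-hour sample. The samples of 2 and 4 hours were nearly equal. Ube4b, a ligase that lengthens existing chains, had 842.8, 703.2, 699.2 and 1011, with the first and the last sample high.

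Among the F-box proteins, the Fbxw probe sets lay low and most Fbxo probe sets high in the 1-hour sample. All 8 tested Fbxw probe sets, from 5 genes, lay below the mean of the others, with a median of -0.27, and in 5 of the 8 the 1-hour sample was the lowest, against 29.1% of all tested probe sets. Of the 8 tested Fbxo probe sets 6 lay above the mean of the others, with a median of 0.30. Of all tested probe sets 54.7% lay above it, with a median of 0.05. The 8 Fbxw probe sets had median differences of 0.50 at 4 hours and 0.24 at 6 hours. These counts were chosen after the values had been seen, several probe sets share a gene, and with 1 probe set per gene the Fbxw count was 5 of 5.

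Fbxw11, which recognises phosphorylated beta-catenin and inhibitors of NF-kappaB, held the other call at 1 hour, on 1 of its 2 probe sets. The dimmer probe set had 324.8, 731.3, 829.5 and 769.8, with the 1-hour sample below the range of the others, a difference of -1.23 (SD 0.10), or 2.34-fold lower (limma, adjusted p = 0.0262). The brighter had 854.4, 998.1, 772.7 and 1106, a difference of -0.13, with the 1-hour sample inside the range of the others. The adjusted p of the dimmer was 0.0609 and 0.0595 without the 2-hour and the 6-hour sample, and it ran from 0.0134 to 0.117 over its 9 alternatives, with a lower level at 1 hour in each.

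The remaining Fbxw genes are substrate adaptors of the same kind. Fbxw5 had 564.8, 500.3, 835.3 and 689.6 on its wider probe set and 1348, 1516, 2118 and 1643 on the other, and the wider probe set of Fbxw4 had 426.4, 481.8, 694.9 and 578.3. All 3 were highest at 4 hours, with differences of 0.54, 0.48 and 0.51. Without the 4-hour sample the 1-hour difference of the first, -0.18, was close to 0 (0.0054). The narrower probe set of Fbxw4 had 264.0, 307.8, 285.8 and 314.4, highest at 6 hours, and a difference of -0.03 at 4 hours.

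Fbxw2 had 588.5, 597.9, 1060 and 1155, so that the samples of 4 and 6 hours lay well above those of 1 and 2 hours, and its fitted change was 1.09 (unadjusted p = 0.00587). Fbxw7, which targets cyclin E, Myc and Notch, had 1472, 1508, 1493 and 1908, where the first 3 were nearly equal and the 6-hour sample was high. Fbxo45, a neuronal F-box protein that acts at synapses, had 754.3, 484.1, 444.2 and 472.2, and the 1-hour sample lay 0.73 above the mean of the others (SD 0.05). Fbxo3 had 561.7, 583.8, 268.7 and 519.4 on 1 probe set, a difference of -1.03 at 4 hours, and 532.1, 485.0, 430.6 and 508.7 on another. Both Fbxo3 probe sets had their lowest value at 4 hours, but by different amounts. Fbxo6, which binds glycoproteins, had 1108, 1254, 1299.5 and 1548 on its tested probe set.

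Fbxo8 had 152.1, 92.1, 100.7 and 102.6, and Fbxo9 had 1078, 815.7, 940.3 and 855.4. Both were highest at 1 hour, with differences of 0.63 and 0.35, and lowest at 2 hours. Fbxl5, which senses iron and targets an iron regulatory protein, had 104.9, 104.0, 145.7 and 95.7, a difference of 0.57 at 4 hours. Fbxl15 had 175.3, 180.4, 229.2 and 258.8, in the order of the hours.

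**Figure D2:**
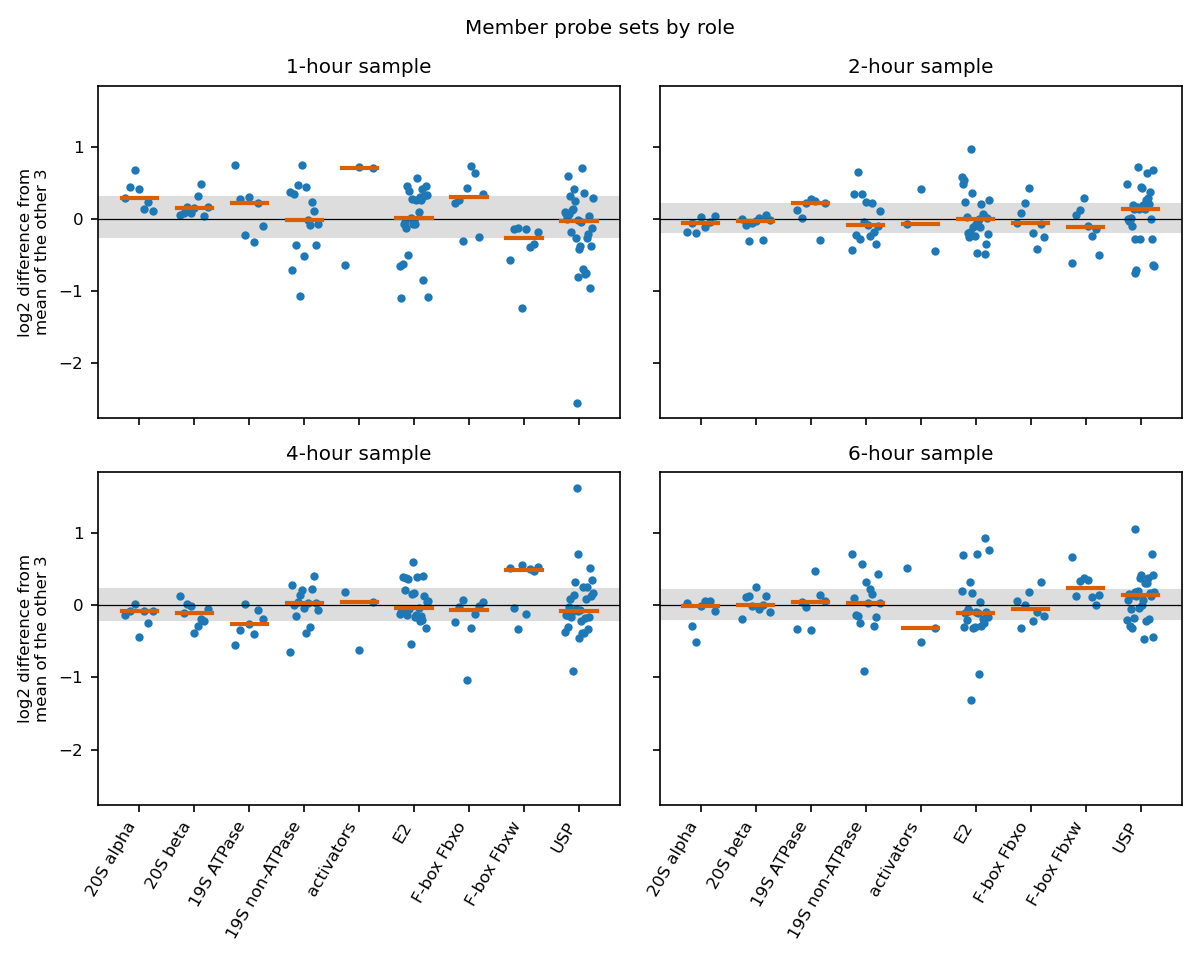
The plot of members by role has 1 panel for each sample, with the log2 difference of that sample from the mean of the other 3 on the y axis and the role groups on the x axis; each point is a tested probe set, each bar the median of a group and the grey band the middle 50% of all tested probe sets. In the 1-hour panel all 8 Fbxw points lie below 0, and all 7 alpha points lie above it.

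Among the deubiquitinases, Uchl1, an abundant neuronal enzyme of the UCH family, had 6045, 6708, 9032 and 8199, with the samples of 4 and 6 hours above the first 2. The fitted change was 0.54 (unadjusted p = 0.0346). Extrapolated to the time from 1 to 6 hours, it was 0.32 without the 1-hour sample and 1.04 without the 6-hour sample. The log2 range over the 4 samples was 0.62. Uchl5, which works at the proteasome, had 415.2, 349.4, 476.6 and 347.5, and its hours alternated between high and low.

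Usp14, the other deubiquitinase that binds the cap, had 918.2, 703.2, 525.4 and 514.0, in falling order, with a fitted change of -0.86 (unadjusted p = 0.0179). Extrapolated to 6 hours without the 6-hour sample, the change was -1.32, against a log2 range of 0.88 over the 4 samples. Usp5, which takes apart free ubiquitin chains, had 1100.2, 1893, 1736 and 2026, a difference of -0.75 at 1 hour (limma, adjusted p = 0.0661). Usp22, a part of the SAGA complex that acts on histones, had 255.9, 552.6, 350.3 and 464.7, also with the lowest value at 1 hour.

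Usp19, anchored in the endoplasmic reticulum, had the widest range of all members. On the dimmer probe set its signals were 24.5, 197.7, 307.3 and 146.4, and the 1-hour value was below the floor, so that the difference of -2.55 is measured from the floor (limma, adjusted p = 0.0580); with the floor at the 40th percentile it was -0.87. On the brighter it had 590.0, 996.2, 1328 and 904.4, a difference of -0.81. The order of the samples, 1 hour lowest and 4 hours highest, was shared by both.

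Usp2, a deubiquitinase whose transcript follows the circadian clock in many tissues, was low in the 2-hour sample on both probe sets. The brighter had 2196, 1211, 1950 and 1977, a difference of -0.75 at 2 hours (SD of the others 0.11), and the other had 1759, 1065, 1833 and 1662, a difference of -0.71 (SD 0.07). Usp10 also had its lowest signal at 2 hours, at 664.4, 419.6, 634.7 and 649.7, a difference of -0.66. Neither gene passed the limma test, and in both the other 3 samples lay close together. Psmb10, described with the immunoproteasome, also had its lowest value at 2 hours.

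Among other ubiquitin-specific proteases, Usp9x, Usp3 and Usp15 differed between their probe sets. Usp9x, an X-linked enzyme of neuronal development, had 2829, 2023, 1782 and 1795 on 1 probe set and 248.6, 201.5, 324.9 and 345.1 on another, so the 1-hour sample was the highest on the first and not on the second. Usp3, which acts on ubiquitinated histones, had 142.4, 205.9, 302.7 and 339.9 on 1 probe set, a fitted change of 1.23 (unadjusted p = 0.0153), but 1092, 1099.5, 1007 and 1179.8 on the brightest. The third Usp3 probe set had 89.9, 160.5, 113.3 and 86.4, a difference of 0.68 at 2 hours, so the 3 probe sets gave 3 orders of the samples. Usp15 had 242.0, 204.2, 139.0 and 402.5 on 1 probe set, with a difference of 1.05 at 6 hours, and 167.1, 271.1, 165.4 and 265.5 on the other. Usp7, an enzyme that stabilises Mdm2 and p53, had 1356, 1533, 1250.4 and 1457 on the brighter of 2 probe sets and 122.7, 191.5, 140.2 and 149.1 on the other, both highest at 2 hours. Usp48 was the steadiest tested member, at 654.5, 655.4, 636.4 and 635.1, a range of 0.09 on the log2 scale.

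**Figure D3:**
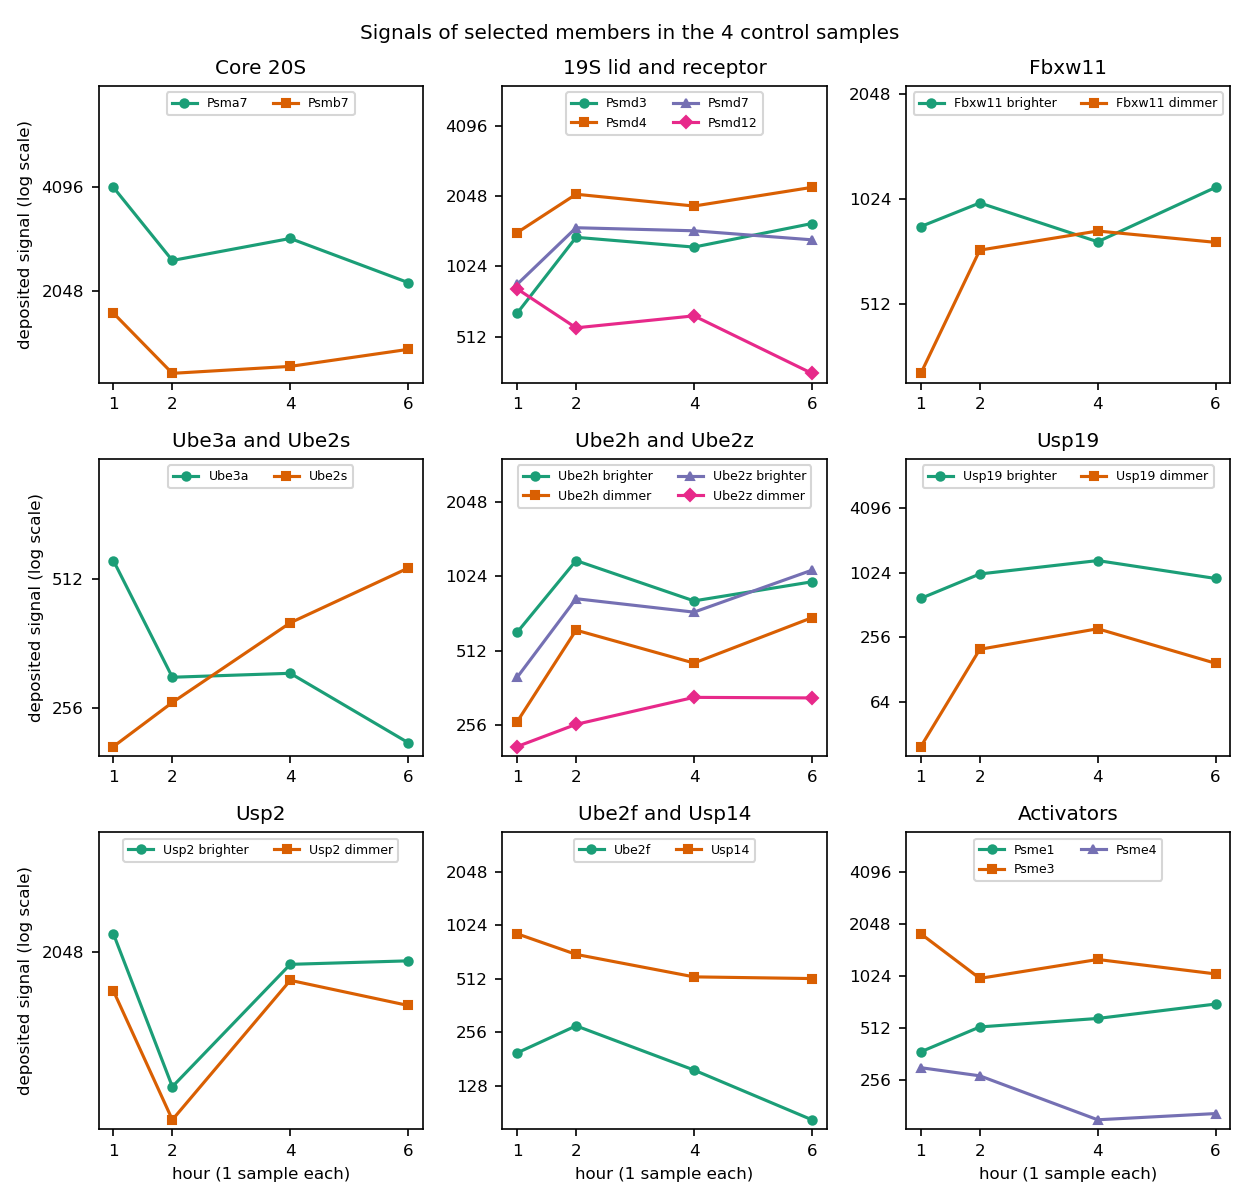
The plot of selected members gives the deposited signal (y axis, log scale, with its own range in each panel) against the hour (x axis), 1 line per probe set; each point is 1 sample and the lines only join points. Psmd3 and the dimmer Fbxw11 probe set have their lowest point at 1 hour, while the brighter Fbxw11 probe set does not, and both Usp2 probe sets have theirs at 2 hours.

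As a whole the members varied between the samples about as much as other transcripts. The median SD over the 4 samples was 0.25 for the 121 tested members and 0.25 for all tested probe sets. A range of 2-fold or more was reached by 17 of the 121 members and by 17.9% of all tested probe sets. Without the 1-hour sample 7 members and 9.06% of all tested probe sets reached it. Proteasome subunits held 4 of the 17, among 43 tested, and ubiquitin enzymes 13, among 77. The median SD was 0.21 for the proteasome and 0.27 for the ubiquitin enzymes, and 0.16 for tested probe sets at least as bright as the median of the core. At 1 hour 5 members lay 2-fold or more below the mean of the others, against 4.56% of all tested. These were Psmd3, Fbxw11, Ube2h, Ube2z and Usp19, each on 1 probe set.

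**Figure D4:**
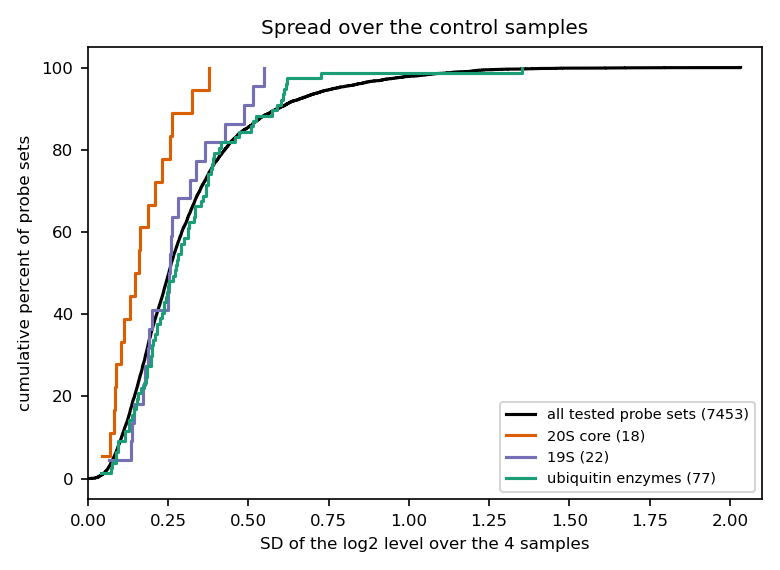
The plot of spread gives the cumulative percent of probe sets (y axis) against the SD of the log2 level over the 4 samples (x axis) for the 18 probe sets of the 20S core, the 22 of the 19S cap, the 77 of the ubiquitin enzymes and all 7453 tested. The curve of the 20S core lies to the left, with a median SD of 0.15, and those of the 19S cap and the ubiquitin enzymes lie near the curve of all tested probe sets, with medians of 0.25 and 0.27. Tested probe sets at least as bright as the median of the core, not drawn, had a median SD of 0.16.

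Several probe sets of a gene gave a check within the arrays, and 22 member genes had more than 1 tested. All tested probe sets of a gene lay on the same side of the mean of the others in 14 of the 22 genes at 1 hour (63.6%, against 50.1% of the 920 such genes on the array), in 10 at 2 hours (45.5%, against 53.6%), in 15 at 4 hours (68.2%, against 50.9%) and in 12 at 6 hours (54.5%, against 51.7%). The median gap between probe sets of a gene at 1 hour was 0.33, against 0.48 over all genes. A gap of 2-fold or more occurred at 1 hour in Usp19, Fbxw11 and Psmc3, where it was 1.74, 1.10 and 1.06. The position of each probe set on its transcript was not used here, and its part in these gaps was not tested, as was that of the 3' to 5' ratio given above.

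**Figure D5:**
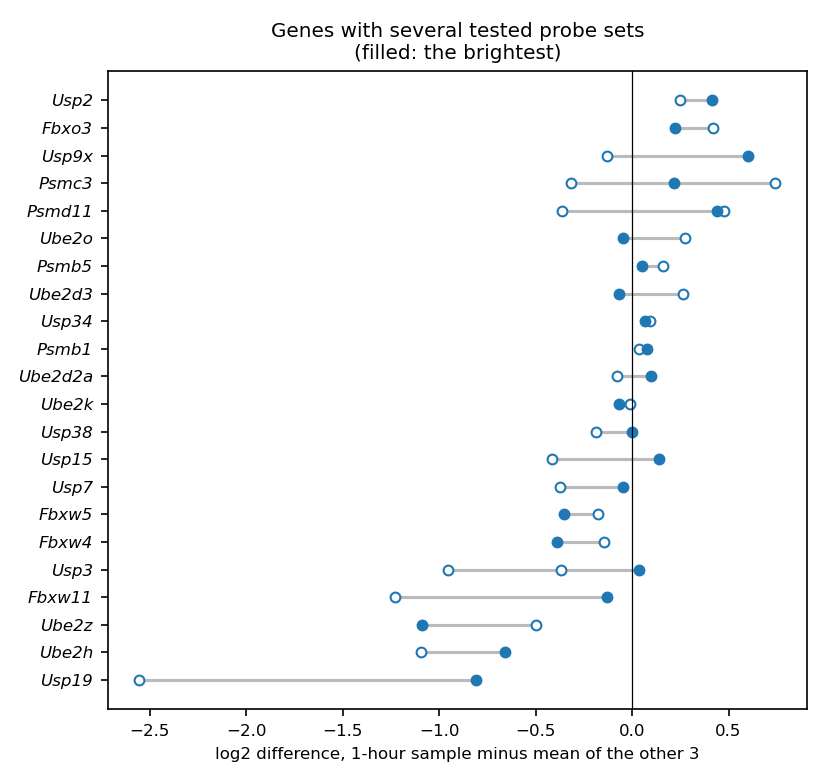
The plot of probe sets of a gene gives the log2 difference of the 1-hour sample from the mean of the other 3 (x axis) for each tested probe set of the 22 genes (y axis), joined by a line within a gene; the filled point is the brightest probe set. The points of Fbxw11, Psmc3 and Usp19 lie more than 1 log2 unit apart, and both points of Ube2h and of Ube2z lie below 0.

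Beyond the members, 71 genes of the wider pathway were listed, among them E1 enzymes, cullins, other ligases, shuttle proteins, the COP9 signalosome and regulators of proteasome genes. Of these, 47 had a probe set, and 58 probe sets of 46 genes were tested. At 1 hour 4 probe sets were lower, of which Sqstm1 is named in addition to the rule, and 0 were higher, where 2.11% and 0.242% of all tested probe sets were. At an unadjusted limma p under 0.05 these were 9 and 4, where 15.8% of all tested probe sets passed, both directions together. The median difference was -0.02 and the median SD 0.24, against 0.05 and 0.25 over all tested probe sets.

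Nfe2l1, a transcription factor that is itself degraded by the proteasome and drives proteasome genes when the proteasome is impaired, was 1 of the 4. Its signals were 255.1, 637.4, 675.6 and 704.1, a difference of -1.35 (limma, adjusted p = 0.0211), and its other probe set had 1809, 2805, 2466 and 2686, a difference of -0.56. Sqstm1, which carries ubiquitinated cargo to autophagy, had 1407, 2575, 2754 and 2809.5, a difference of -0.93 (adjusted p = 0.0203). Ubqln1, a shuttle that brings ubiquitinated proteins to the proteasome, had 290.5, 778.3, 735.3 and 816.0, a difference of -1.38 (adjusted p = 0.0182), and 1605, 2210, 2569 and 2291 on its other probe set. Cops7a, a subunit of the COP9 signalosome, had 81.5, 424.0, 456.0 and 483.2, a difference of -2.46 (adjusted p = 0.00787), but 1267, 1144, 1659 and 1061 on its other probe set. The 1-hour sample was the lowest of the 4 on every one of these probe sets except the second of Cops7a. Without the 2-hour sample the adjusted p was 0.0518 for Nfe2l1, 0.0504 for Sqstm1 and 0.0504 for Ubqln1, and without the 6-hour sample it was 0.0557 for Nfe2l1 and 0.0595 for Sqstm1, so those calls were lost there.

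Anapc1, the scaffold of the anaphase-promoting complex, was the other pathway gene of widest range. It had 127.5, 134.8, 53.3 and 181.8, with the 4-hour sample below the others by a difference of -1.40 (limma, adjusted p = 1.00; -0.35 if floored at the 40th percentile), and 341.9, 384.3, 283.9 and 290.2 on its other probe set. Its 1-hour sample lay inside the range of the others on both.

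Nfe2l1 binds, with small Maf proteins, the antioxidant response element, whose core was searched on both strands as TGACNNNGC in RefSeq promoter windows (GRCm38.p6), from 250 bases before to 50 bases after the start. Promoters were found for 84 of the 110 member genes, 101 windows in all, and the core occurred in 19 of the 101 (18.8%), in 6 of 36 windows of proteasome genes (16.7%) and in 13 of 62 windows of ubiquitin enzymes (21.0%), against 12.4% of 32851 windows. It occurred in 2 of the 15 windows of the 20S core, in Psmb5 and Psmb6, in 3 of the 18 of the 19S cap, in Psmc6, Psmd9 and Psmd12, and across the start of Psme4. These 5 stretches are shown because they stand beside the subunits and the regulator described above, with the core in capitals, 5′ to 3′ on the strand of the gene, so that a match on the opposite strand reads as its reverse complement. A match is a run of letters and not a known site.
Psmb5 (chr14:54618008-54618067, minus strand): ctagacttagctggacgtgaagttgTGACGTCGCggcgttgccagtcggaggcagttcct
Psmb6 (chr11:70525323-70525356, plus strand): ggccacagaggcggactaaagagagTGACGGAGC
Psmc6 (chr14:45329574-45329631, plus strand): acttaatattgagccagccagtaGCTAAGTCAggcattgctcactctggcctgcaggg
Psmd9 (chr5:123228134-123228189, plus strand): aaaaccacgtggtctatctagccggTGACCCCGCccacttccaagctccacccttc
Psmd12 (chr11:107479278-107479315, plus strand): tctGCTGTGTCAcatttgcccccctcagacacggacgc
The match in Psmb6 ended at the base before the annotated start and that in Psmb5 began at position -47 from it. The SD over the 4 samples was 0.10 and 0.16 for the probe sets of Psmb5, 0.08 for Psmb6, 0.26 for Psmc6, 0.25 for Psmd9 and 0.52 for Psmd12, against a median of 0.25 over all tested probe sets. The windows of Psma3, Psma7 and Fbxw11 did not hold these letters.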

How the data were processed

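Values were deposited intensities, 1 column per sample, on a linear scale. With 2% of values trimmed at either end, column means were 500.304 to 500.335, so the authors had scaled the arrays to a common level; the array software is not given in the sources used here. Gene symbols came from the annotation table of the platform. After removal of 66 control probe sets from 12488, the 4 columns were quantile normalized, floored at the 20th percentile (35.1) and log2 transformed. Probe sets with a mean at or above the 40th percentile, 7453 in all, were tested with limma 3.58.1 in R 4.3.3 (eBayes with an intensity trend), for a linear trend over hours with 2 residual degrees of freedom and for each sample against the other 3, which leaves the sample singled out without a spread. P-values were two-sided and adjusted over all 7453 by Benjamini and Hochberg at 0.05. The code was tested on simulated data. Figures used Python 3.11.15 and matplotlib 3.10.9.

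Named by rule were a preset list of 41 genes, 8 of them without a probe set under their symbol, and the 4 widest genes of the pathway list. Dim probe sets of genes with a tested one are not printed. The rule also named up to 4 tested probe sets of widest range in each role group. It further named the 3 members furthest up and down in each sample and in the trend. Sqstm1, Usp5, Usp22, Psmd6 and Psmd9 were added to the text with their values seen. So were the members given as steady, dim or part of a group. Members and lists were chosen with earlier results of these data known. All 149 members matched the RefSeq gene table (GRCm38.p6), and no symbol differed. Alternatives were values as deposited, equal medians, a floor at the 40th percentile, no filter, no intensity trend, 1 probe set per gene, current symbols and leaving out each sample.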

Additional observations from a re-analysis of the deposited data

Results flagged for a closer look

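A sample far from the other 3 was sought among 78 tested probe sets, 77 named by rule and Sqstm1, as the gap of the highest or lowest sample to its nearest neighbour divided by the whole range on the log2 scale, against Dixon's critical value for 4 samples. A total of 9 passed. Chance gives about 1 in 20 groups that were not chosen by their values, but many of these probe sets were named for a wide range or for a sample far from the others, so the count of 9 cannot be read against that rate. The lowest sample was that of 1 hour for the dimmer Fbxw11 probe set (0.853) and for Cops7a (0.925), Ubqln1 (0.908), Nfe2l1 (0.900) and Sqstm1 (0.885), each on its dimmer or its single tested probe set. The 1-hour sample was the highest for Fbxo45 (0.883). The 2-hour sample was the lowest for Usp10 (0.871), the 4-hour sample the lowest for 1 probe set of Fbxo3 (0.841), and the 6-hour sample the highest for Fbxw7 (0.914). Of the 9, 6 concern the 1-hour sample, whose 3' to 5' ratio of Gapdh was 4.52; its part in them was not tested.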

How the results depend on the processing

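The count of members called at 1 hour, 2 in the analysis as reported, was 5 with values as deposited, 3 with equal medians, 1 with 1 probe set per gene, and 0 with a floor at the 40th percentile or without the intensity trend; leaving out 1 other sample gave 0 to 3, with 0 without the 2-hour or the 6-hour sample. Over all tested probe sets the calls at 1 hour were 175, and 272, 222, 127, 3 and 0 in those settings. With no filter the member count was again 2, but these were Ube2t and the dimmer probe set of Usp4. Both lay below the floor in the 3 samples other than that of 1 hour, so the floor set their SD of the others to 0. The member counts at 2, 4 and 6 hours were then 2, 4 and 3 in place of 0. Over all 12422 probe sets the calls with no filter were 365, 217, 227 and 211 at 1, 2, 4 and 6 hours. The trend called 0 members in each setting. Ube2z passed at 1 hour with values as deposited (limma, adjusted p = 0.0438) and Ube2h without the 4-hour sample (adjusted p = 0.0424). The number of members with a range of 2-fold or more, 17, was 28 with no filter and 7 to 16 with 1 sample left out, 7 of them without the 1-hour sample. The median difference of the ubiquitin enzymes at 1 hour changed from -0.046 to 0.023 with 1 probe set per gene; at 2 hours it was -0.051 with equal medians, and at 6 hours 0.0051 with 1 probe set per gene and 0 with no filter, against 0.058. The 2 counts added after seeing the data, 20S core probe sets above and Fbxw probe sets below the mean of the others at 1 hour, were 17 and 8; the first ran from 15 of 16 to 18 of 22, and the second was 5 of 5 with 1 probe set per gene and 7 without the 4-hour sample. Of 72 single differences and trends, from 61 probe sets, that were recomputed, 4 changed direction with 1 sample left out, and none of the 4 passed the threshold: at 1 hour the second probe set of Cops7a (-0.099 to 0.23) and the dimmer ones of Fbxw5 (-0.39 to 0.0054) and Usp9x (-0.39 to 0.0084), and at 4 hours the narrower one of Fbxw4 (-0.091 to 0.012). Other values in the text were not recomputed. Usp19 and Usp5 passed at 1 hour with values as deposited (adjusted p = 0.0376 and 0.0406), and Usp19 with equal medians (0.0436); with a floor at the 40th percentile or no intensity trend the 4 calls of the pathway list were lost (adjusted p = 0.0595 to 0.177). No paired analysis was possible because the 4 samples form 1 group. Signals near the floor give only an upper bound, as for Usp19 at 1 hour.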
